A study of Mus musculus with 10 samples.

Results

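Semaphorins, plexins and neuropilins are the ligands, receptors and co-receptors of 1 guidance system, and their genes were read here in cortical cells with and without Cdkn1c. A gene was taken as a member when its symbol was a class 3 to 7 semaphorin (Sema3a to Sema7a), a plexin (Plxna, Plxnb, Plxnc or Plxnd) or 1 of both neuropilins. This gave 31 of the 53379 genes counted, namely 20 semaphorins, 9 plexins and 2 neuropilins. Of these, 26 averaged 10 reads or more per library and were tested among 11551 genes in all. The members just inside this limit were Sema4c and Sema7a, with means of 16.3 and 16.8 reads, and the nearest below it was Sema3e with 5.5 reads.

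A library came from 400 sorted neocortical cells of 1 embryo at embryonic day 16, and 3 cKO-Cdkn1c-MADM-7 embryos (cKO) were compared with 7 MADM-7 control embryos. Every embryo carried the MADM cassette GT on 1 copy of chromosome 7 and TG on the other, together with Emx1-Cre, on a mixed C57BL/6J and CD1 background. In cKO embryos both of these chromosomes also carried the Cdkn1c-flox allele. Cdkn1c encodes p57KIP2, an inhibitor of cyclin-dependent kinases. MADM (Mosaic Analysis with Double Markers) labels sparse cells in which recombination between the cassettes restored GFP, tdT or both, and the labelled cells of all colours were sorted together. Some of them therefore had both copies of chromosome 7 from 1 parent. Emx1-Cre acts in the dorsal telencephalic lineage of radial glia, projection neurons and glia, so endothelium, microglia and interneurons were not targeted, and male and female embryos were not separated. The comparison asks which members differ when the whole Emx1+ lineage has lost Cdkn1c.

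Class 3 semaphorins are secreted, and most of them bind a neuropilin that has only a short cytoplasmic tail and signals through a plexin of class A. Class 4 to 7 semaphorins are membrane-bound or membrane-anchored and bind plexins directly. Plexins act on small GTPases through their cytoplasmic GAP domain, and through CRMP, MICAL and kinases they change actin, microtubules and adhesion. In the developing cortex the system is known for steering callosal and corticofugal axons, for orienting migrating neurons and for sorting interneurons and vessels. Neuropilins also bind VEGF.

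The libraries held 1738220 to 3362487 reads on genes. In cKO libraries 10 to 32 reads fell on Cdkn1c, against 116 to 369 in controls, so the targeted gene followed the labels. The share of uniquely aligned reads outside genes split the libraries within both genotypes. It was 5.47 to 8.64% in cKO 3 and in control 1, 2, 6 and 7, and 12.8 to 16.7% in cKO 1 and 2 and in control 3, 4 and 5. Levels are given as CPM (read counts on a gene relative to the library's reads on genes, with TMM factors) and, between genes, as CPM per kilobase of exon. Reads were not collapsed to molecules, and the tests describe the spread between libraries. Differences between embryos and noise from amplification cannot be told apart in that spread. In pooled cells, fewer cells of a type and less RNA per cell cannot be told apart.

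Nrp1 and Nrp2, the co-receptors for secreted semaphorins, are shown first because they moved in opposite directions. The windows below run from 250 bases before to 50 bases after the RefSeq start (GRCm38.p6) on the plus strand, 5′ to 3′. Nrp1 is at chr8:128358823-128359122 and Nrp2 at chr1:62703067-62703366. Capitals mark the E-box letters CANNTG, which are the same on both strands and are the class of motif bound by bHLH factors such as Neurod2 and Neurog2.
Nrp1: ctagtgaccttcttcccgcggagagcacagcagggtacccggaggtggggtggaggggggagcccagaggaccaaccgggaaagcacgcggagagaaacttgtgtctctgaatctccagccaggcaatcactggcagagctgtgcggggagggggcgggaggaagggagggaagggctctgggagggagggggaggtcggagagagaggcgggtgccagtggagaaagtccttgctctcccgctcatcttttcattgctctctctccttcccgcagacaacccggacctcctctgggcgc
Nrp2: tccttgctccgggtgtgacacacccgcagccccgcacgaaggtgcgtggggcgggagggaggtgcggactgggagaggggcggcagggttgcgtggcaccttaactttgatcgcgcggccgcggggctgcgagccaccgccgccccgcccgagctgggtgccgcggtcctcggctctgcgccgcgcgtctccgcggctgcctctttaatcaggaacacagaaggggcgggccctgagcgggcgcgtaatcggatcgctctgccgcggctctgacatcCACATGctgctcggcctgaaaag
The Nrp1 window had no match and the Nrp2 window had 1 (CACATG), while 72.3% of all 32851 promoter windows of this length held at least 1. Their GC content was 64% and 70.7%. The RefSeq start of Nrp1 lies 469 bases past the first base of the GENCODE gene, and that of Nrp2 lies 32 bases from it. The Nrp1 window may therefore not be the one used in these cells, and the lack of a match says only that these letters are not in this window.

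Nrp1 was the member with the highest level per length in controls and the only one that was called lower in cKO. It binds Sema3a, Sema3c and VEGF and is found on callosal axons among others. Its level was 140.1, 168 and 169 CPM in the 3 cKO libraries, and in controls it ran from 292 over a median of 341 to 357 CPM. All 3 cKO libraries lay below the lowest control, and the controls differed little among themselves. The mean fell from 332 ± 27.1 (SD, n = 7) to 159 ± 16.3 CPM (SD, n = 3), a log2 fold change of -1.07 with an SE of 0.14 (edgeR's quasi-likelihood test, adjusted p = 0.000231). The call was kept in all 17 alternatives, with log2 fold changes of -1.11 to -0.98 when single libraries were left out.

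Nrp2 went the other way. It is the preferred co-receptor of Sema3f. Its level was 117, 91.8 and 64.4 CPM in cKO, against a lowest control of 12.6, a median of 39.1 and a highest of 75.6 CPM. The groups overlapped, since control 5 was above cKO 3. The mean rose from 40.4 ± 19.3 (SD, n = 7) to 91.1 ± 26.4 CPM (SD, n = 3), with a log2 fold change of 1.23 and an SE of 0.30 (edgeR's quasi-likelihood test, adjusted p = 0.032). The edgeR adjusted p was 0.145 without cKO 1, 0.0557 without cKO 2, 0.0741 without control 2, 0.0689 without control 3, 0.0586 without control 7 and 0.059 with the read share outside genes as a covariate, so the call of Nrp2 did not hold in these settings.

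The balance between both co-receptors was compared within each library. On the log2 CPM scale Nrp1 exceeded Nrp2 by 3.17 ± 0.71 in controls (SD, n = 7) and by 0.83 ± 0.56 in cKO (SD, n = 3). The lowest control was at 2.22 and the highest cKO library at 1.38. The groups differed by -2.34 on this scale. The value restates the opposite directions of both genes in the same libraries, so it is given as a description, with no p-value, and adds nothing to the call of Nrp2. Leaving out single libraries moved it between -2.61 and -2.05.

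**Figure D1:**
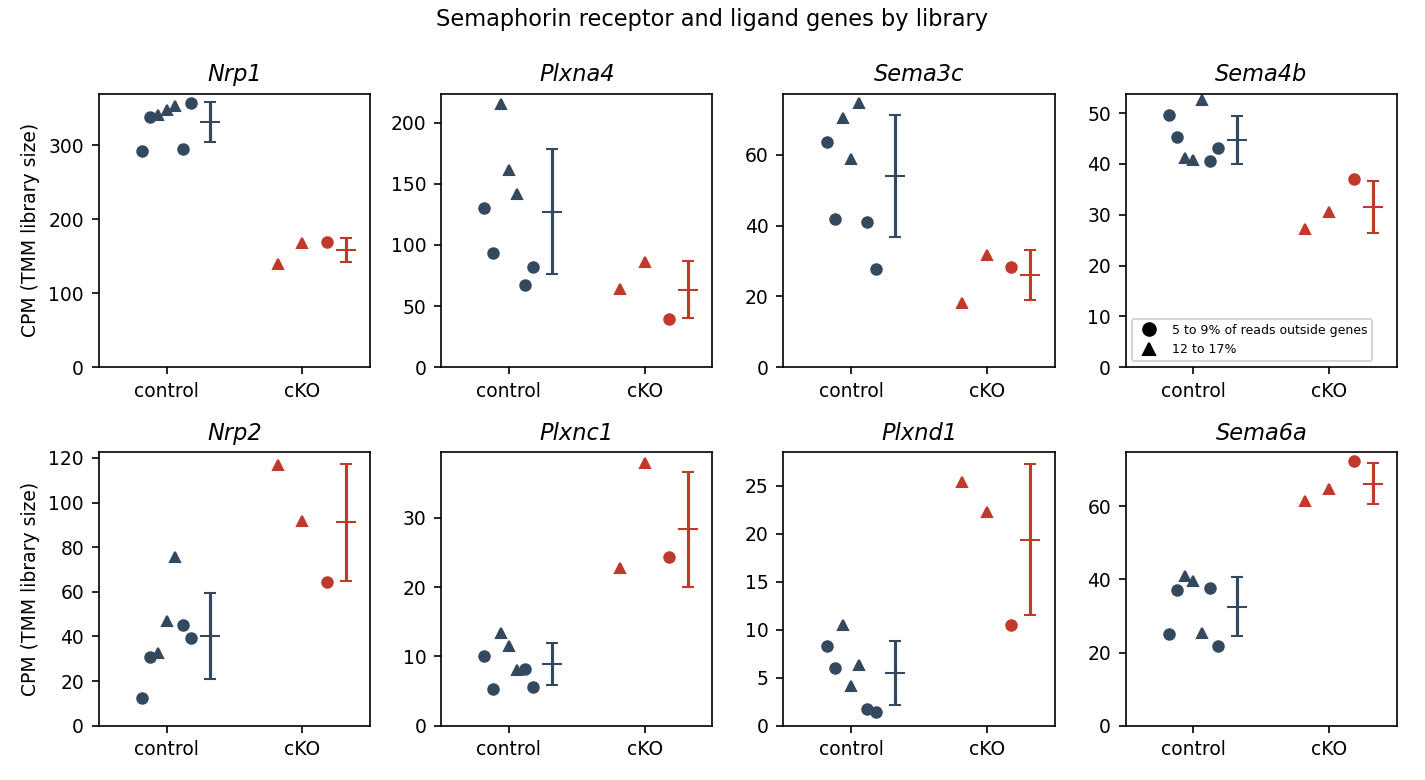
Level of 8 members in every library, in CPM with TMM library sizes on a linear axis from 0. Points are libraries of 7 control and 3 cKO embryos, circles with the smaller and triangles with the larger share of reads outside genes, and bars are the mean ± SD. Nrp1 and Sema4b lay below every control in all 3 cKO libraries, Plxnc1 and Sema6a lay clearly above, the lowest cKO library of Plxnd1 lay level with the highest control, and Plxna4, Sema3c and Nrp2 overlapped.

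Among all genes tested, 364 were called, which is 3.15% (2.27% higher and 0.883% lower in cKO). Of the 26 members 5 were called, with Plxnd1, Plxnc1, Nrp2 and Sema6a higher and Nrp1 lower. An unadjusted p under 0.05 was reached by 10 members, against 16.4% of all genes tested. The median log2 fold change was -0.13 over the members and 0.01 over all genes, with 12 members above 0 and 14 below. Semaphorins had 1 of 16 called, plexins 2 of 8 and neuropilins both. Without cKO 1 the members called numbered 3, against 2.93% of all genes tested. The lower members called numbered 2 without control 6 (0.959% of all genes) and 2 without control 7 (0.734%), with Plxna4 and Sema3c added in turn.

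**Figure D2:**
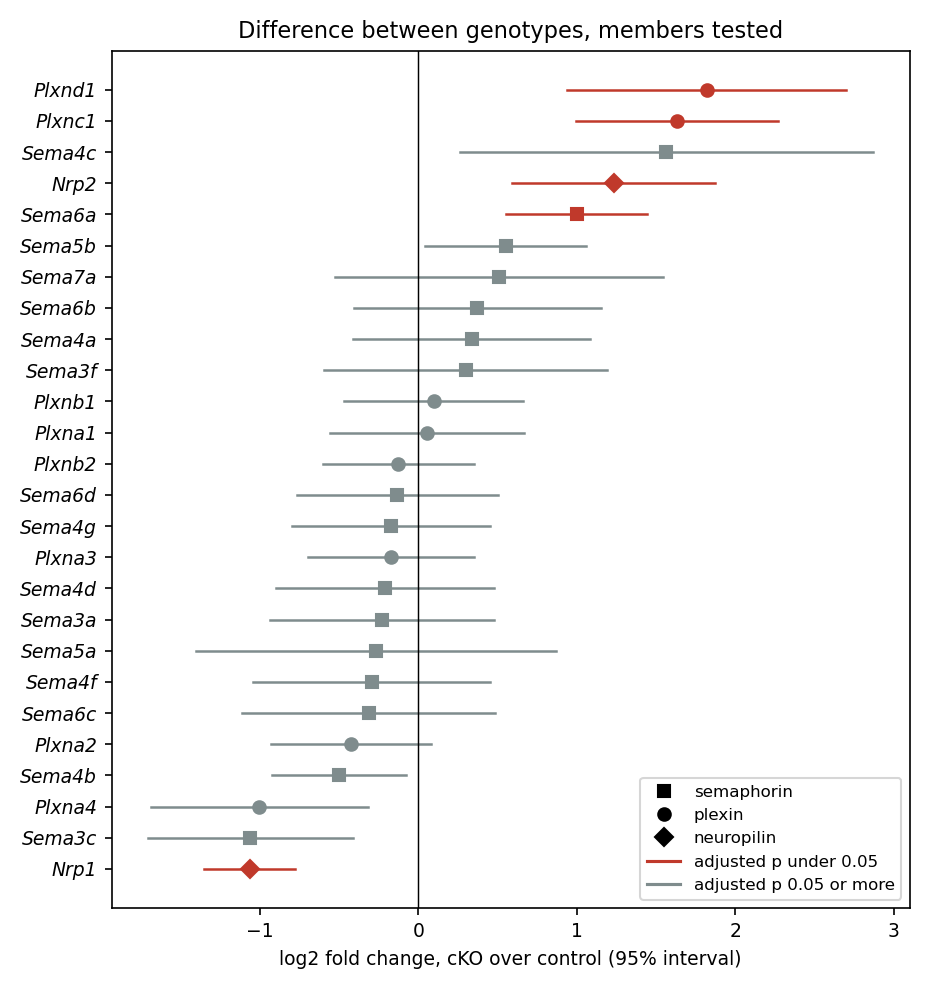
Log2 fold change of cKO over control for the 26 members tested, with 95% intervals from the edgeR quasi-likelihood fit; squares are semaphorins, circles plexins and diamonds neuropilins. The 5 members with an adjusted p under 0.05 are red, with Nrp1 at -1.07 at the bottom and Plxnd1 at 1.82 at the top, and most semaphorins are grey and cross 0.

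Among the receptors, Plxnc1 and Plxnd1 rose in cKO. Plxnc1, the receptor of the membrane-anchored Sema7a, was at 22.7, 37.9 and 24.4 CPM in cKO and at 5.31, 8.2 and 13.4 CPM in the lowest, median and highest control. The groups did not overlap. The mean rose from 8.9 ± 2.99 (SD, n = 7) to 28.3 ± 8.31 CPM (SD, n = 3), a log2 fold change of 1.63 with an SE of 0.30 (edgeR's quasi-likelihood test, adjusted p = 0.00469). Its ligand gene Sema7a was at 11.7, 8.98 and 1.68 CPM in cKO and at 1.41 to 8.68 CPM in controls, with a median of 5.04. These values overlapped and spread widely, and Sema7a was not called, at a log2 fold change of 0.51 and an SE of 0.49 (edgeR's quasi-likelihood test, adjusted p = 0.676).

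Plxnd1, which binds Sema3e and is best known from endothelium, was at 25.4, 22.3 and 10.5 CPM in cKO. Controls ran from 1.41 over a median of 6.01 to 10.5 CPM. The lowest cKO library, cKO 3, was at 10.518 CPM and the highest control at 10.506 CPM, so the groups met. The mean rose from 5.5 ± 3.32 (SD, n = 7) to 19.4 ± 7.85 CPM (SD, n = 3), a log2 fold change of 1.82 with an SE of 0.42 (edgeR's quasi-likelihood test, adjusted p = 0.0213). Without cKO 1 the edgeR adjusted p was 0.106 and without cKO 2 it was 0.0555. The 7 endothelial markers were too low to be tested, and their summed level was 1.34, 21.5 and 3.79 CPM in cKO and 0 to 5.77 CPM in controls. It was thus highest in cKO 2, while Plxnd1 was highest in cKO 1, and the part of endothelial RNA in the rise was not tested. Sema3e, the ligand, had only 3 to 16 reads in cKO and 1 to 7 in controls.

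Class A plexins, the signalling partners of the neuropilins, gave no call. Plxna4, a partner of Nrp1 in the response to Sema3a, was at 64.2, 86.3 and 39.5 CPM in cKO, against a lowest control of 67.4, a median of 130 and a highest of 215 CPM. Only cKO 2 was above the lowest controls. The log2 fold change was -1.0 with an SE of 0.32, and the adjusted p of edgeR's quasi-likelihood test was 0.112. Within the libraries of smaller share of reads outside genes, with cKO 3 as the lone cKO library, the log2 ratio of means was -1.24. Within those of larger share it was -1.20. With that share as a covariate the edgeR adjusted p was 0.00957, DESeq2 gave 0.0428, and without control 6 edgeR gave 0.0483.

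Plxna2, a receptor of class 6 semaphorins with the highest control level per length among plexins, was at 157, 283 and 130 CPM in cKO and from 182 over 233 to 341 CPM in controls. Of these, cKO 2 lay among the controls and the others below them. The log2 fold change was -0.43 with an SE of 0.24 (edgeR's quasi-likelihood test, adjusted p = 0.403). It was -0.83 without cKO 2 and -0.22 without cKO 3. Plxna2 exceeded Plxna4 by 1.56 ± 0.24 on the log2 CPM scale in cKO (SD, n = 3) and by 1.06 ± 0.30 in controls (SD, n = 7), a difference of 0.50 with p = 0.05 in the two-sided exact permutation test, 0.0667 after adjustment over 4 contrasts and 0.075 over the 3 without Nrp1 minus Nrp2. Plxna3 and Plxna1 had log2 fold changes of -0.17 and 0.05. That of Plxna1 was -0.62 without cKO 2, where the gene had 123 CPM, and 10.7% of its exon bases are shared with the gene Gm26811, so its counts are uncertain.

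Plxnb2, a receptor of class 4 semaphorins that is used in progenitors and migrating neurons, had 78.6, 137.5 and 60.6 CPM in cKO, and 82.1, 94.3 and 137.4 CPM in the lowest, median and highest control. The cKO libraries lay on both sides of the control range, and the log2 fold change was -0.13 with an interval from -0.60 to 0.35. It was -0.52 without cKO 2 and turned to 0.09 without cKO 3. Plxnb1 stood at 0.10 with an interval from -0.47 to 0.66. Plxnb3 had 2 reads in cKO 2 and none elsewhere.

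**Figure D3:**
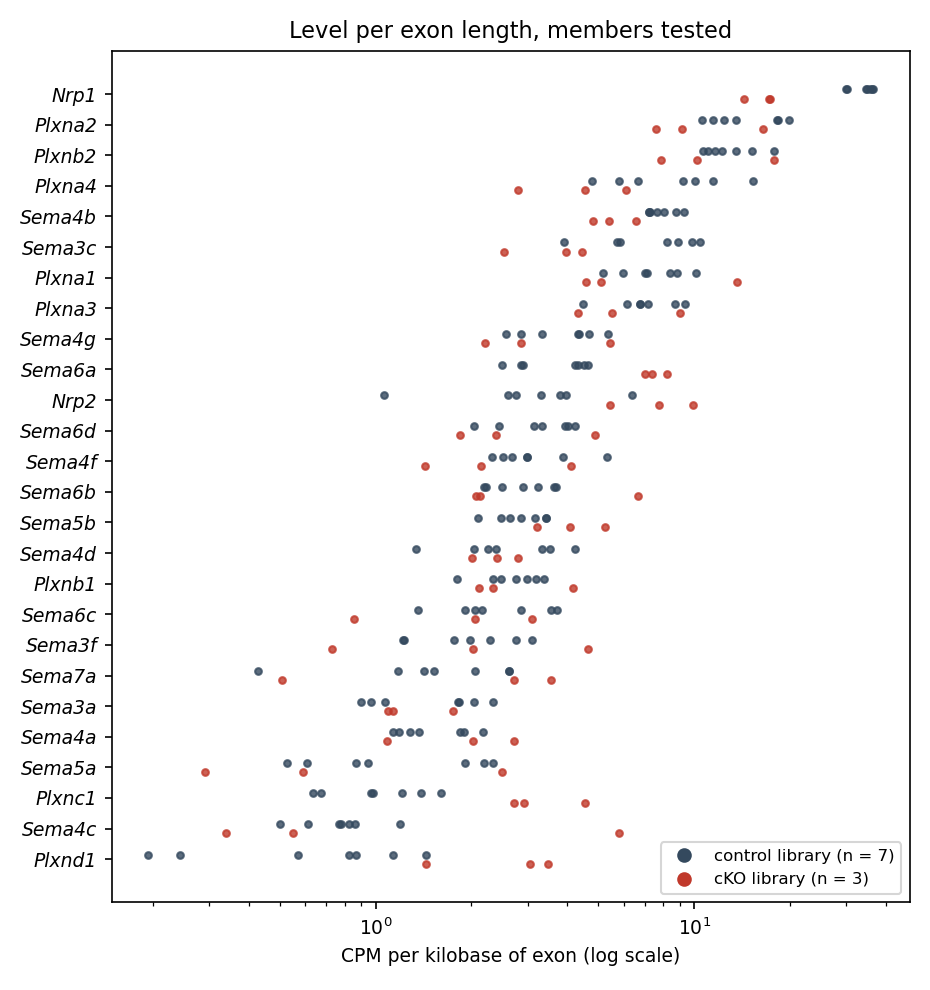
CPM per kilobase of exon on a log axis for the 26 members tested, ordered by the control mean; dots are libraries, 7 control and 3 cKO. Nrp1 stood at the top in controls at 34 and Plxnd1 at the bottom, and cKO dots lay left of every control dot for Nrp1 and Sema4b and right of them for Sema6a and Plxnc1.

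Per kilobase of exon, Nrp1 had the highest control level of all members, at 34 ± 2.77 CPM (SD, n = 7). It was followed by Plxna2 at 14.9 ± 3.77 and Plxnb2 at 13.1 ± 2.58 CPM per kilobase, whose ranges overlapped. The next were Plxna4 at 9.02 ± 3.64, Sema4b at 7.92 ± 0.834, Sema3c at 7.56 ± 2.43, Plxna1 at 7.52 ± 1.71 and Plxna3 at 7.05 ± 1.61 CPM per kilobase, and these neighbours did not differ beyond their spread. Apart from Sema4b and Sema3c, each semaphorin had a control mean of 3.92 CPM per kilobase or less. In cKO, Nrp1 was at 16.2 ± 1.67 CPM per kilobase (SD, n = 3), with Plxnb2 at 11.9 ± 5.21 and Plxna2 at 11.1 ± 4.76 CPM per kilobase next to it.

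Of the ligands, Sema6a was the only semaphorin called. It is a transmembrane semaphorin that signals through Plxna2 and Plxna4. Its level was 61.5, 64.8 and 72.4 CPM in cKO, and 21.9, 37.1 and 40.9 CPM in the lowest, median and highest control. The cKO libraries were close together and all above the controls. The mean rose from 32.5 ± 8.02 (SD, n = 7) to 66.3 ± 5.55 CPM (SD, n = 3), a log2 fold change of 1.0 with an SE of 0.21 (edgeR's quasi-likelihood test, adjusted p = 0.0133), and without cKO 3 the edgeR adjusted p was 0.0609. The other class 6 members, Sema6b, Sema6c and Sema6d, had log2 fold changes of 0.37, -0.31 and -0.13 and were not called. With single libraries left out these ranged from -0.47 to 0.66, from -0.82 to 0.04 and from -0.66 to 0.15, so their directions were not stable. For Sema6b, cKO 1 held 26.4 CPM and the other cKO libraries 8.2 and 8.41 CPM.

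Sema3c, a secreted ligand made by cortical neurons and in the callosal pathway, was the class 3 member of highest level per length. It had 18.1, 31.6 and 28.2 CPM in cKO, with a lowest control of 27.9, a median of 58.8 and a highest of 74.5 CPM. Only control 7 reached the cKO range. The log2 fold change was -1.06 with an SE of 0.31 and a 95% interval from -1.71 to -0.41, and the adjusted p of edgeR's quasi-likelihood test was 0.0722. It was 0.0288 without control 7 and 0.0391 with the read share outside genes as a covariate, and DESeq2 gave 0.0188.

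The rest of class 3 gave no call. Sema3a, a repellent for cortical axons that acts through Nrp1 and Plxna4, had 15.1 to 24.2 CPM in cKO and 12.5 to 32.4 CPM in controls, with a log2 fold change of -0.23 and an interval from -0.94 to 0.47. Sema3f, the ligand of Nrp2, had 3.79 to 24.1 CPM in cKO and 6.35 to 16 CPM in controls, with a log2 fold change of 0.30 and an interval from -0.59 to 1.19. The log2 fold change of Sema3f turned to -0.58 without cKO 1 and was 0.70 without cKO 3. Sema3b, Sema3d and Sema3e were below the limit of 10 reads, with at most 10, 7 and 16 reads in a library. Sema3g had no read in any library, which at these depths says only that it was not detected.

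Sema4b, the class 4 member of highest level per length, had 27.1, 30.5 and 37 CPM in cKO and 40.7, 43 and 52.5 CPM in the lowest, median and highest control. All cKO libraries lay below the controls, as was the case for 2.68% of all genes tested, and among members for Sema4b and Nrp1. The log2 fold change was -0.50 with an SE of 0.20 (edgeR's quasi-likelihood test, adjusted p = 0.209). Sema4b lies on chromosome 7, where the labelled cells of both genotypes can have both copies from 1 parent.

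Sema4c is a ligand of Plxnb2. It was at 26.8 CPM in cKO 1 and at 1.56 and 2.52 CPM in the other cKO libraries, with 2.31, 3.57 and 5.47 CPM in the lowest, median and highest control. A single library thus set its log2 fold change of 1.57, with an SE of 0.62 (edgeR's quasi-likelihood test, adjusted p = 0.205). Without cKO 1 it fell below 10 reads and was not tested, and without cKO 2 the edgeR adjusted p was 0.0455. With no filter on low counts edgeR gave an adjusted p of 0.0125, whereas limma-voom gave a log2 fold change of 0.54 and an adjusted p of 0.764. Its exons share 7.27% of their bases with D430040D24Rik, so its counts are uncertain. The other class 4 members, Sema4a, Sema4d, Sema4f and Sema4g, had log2 fold changes from -0.30 to 0.34 and none was called.

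The class 5 genes encode ligands with thrombospondin repeats that are known as both attractants and repellents. Sema5b, the one of higher level per length, had 28.8, 37.1 and 22.7 CPM in cKO against 14.9, 20.3 and 24.3 CPM in the lowest, median and highest control, and only cKO 3 lay in the control range. Its log2 fold change was 0.55 with an SE of 0.24 (edgeR's quasi-likelihood test, adjusted p = 0.26). Sema5a had 11, 46.5 and 5.47 CPM in cKO and 9.88 to 43.8 CPM in controls. In controls, every library of larger share of reads outside genes had 35.8 CPM or more of Sema5a and every library of smaller share 17.7 CPM or less. The difference between Sema5a and Sema5b was lower in cKO by 1.07 on the log2 CPM scale, with p = 0.133 in the two-sided exact permutation test and after adjustment. With single libraries left out, cKO minus control for this contrast ranged from -1.72 to -0.60.

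**Figure D4:**
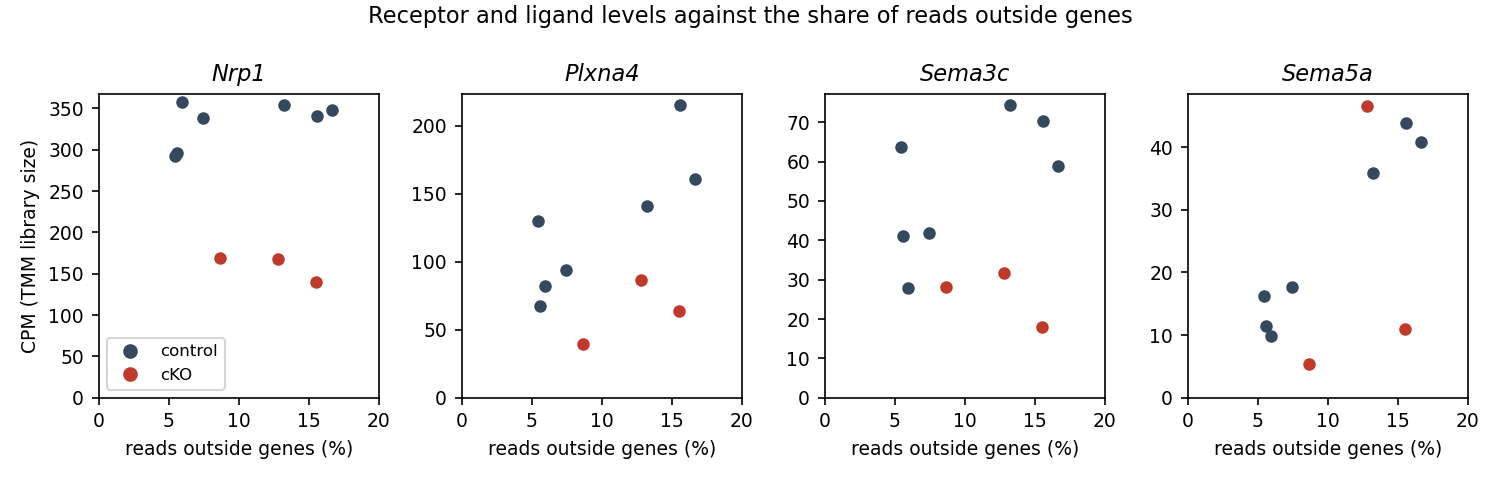
CPM of Nrp1, Plxna4, Sema3c and Sema5a in every library against the percentage of uniquely aligned reads outside genes, with 7 control and 3 cKO libraries as dots. Nrp1 in controls was about level across the axis, whereas Sema5a in controls was at most 17.7 CPM at shares below 10% and at least 35.8 CPM above, and cKO libraries were spread along the same axis.

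The 21 members not called were not all measured finely enough to bound a change at 2-fold. For 10 of them the 95% interval lay between -1 and 1 on the log2 scale, and for 11 it reached past that. All 3 cKO libraries lay above the control range for 3 members, Plxnc1, Plxnd1 and Sema6a, against 3.32% of all genes tested, and for Plxnd1 only by the margin between 10.518 and 10.506 CPM. The libraries cKO 1 and cKO 2 held the highest value of 7 and 8 of the 26 members and the lowest of 6 and 4. Over all genes tested, they held the highest value of 18.1% and 15% and the lowest of 18.9% and 15.4%. The library cKO 3 held the highest value of 1 member and the lowest of 7, against 12.3% and 9.82% of all genes tested.

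Genes outside the families that work with these receptors were read from a list of 44 partners and effectors, of which 35 were tested. The list held co-receptors such as L1cam and Met, the VEGF genes, CRMP and MICAL proteins, small GTPases and cofilin. Of the 35, 1 was called, Rnd2, and none was lower, against 2.27% and 0.883% of all genes tested, and the median log2 fold change was 0.0006. Rnd2, a small GTPase that acts in the migration of newborn neurons, had 125 to 217 CPM in cKO and 54.7 to 98.4 CPM in controls. Its log2 fold change was 1.09 with an SE of 0.22 (edgeR's quasi-likelihood test, adjusted p = 0.00917). Without cKO 1 no gene of the list was called, and 2 were called without cKO 2 or without control 6.

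The genes of this list with the smallest p after Rnd2 among those higher in cKO were Met, a receptor kinase that pairs with class B plexins, at 1.60 on the log2 scale with an SE of 0.55, and Vegfa, a neuropilin ligand, at 0.75 with an SE of 0.30. Among those lower in cKO they were Cntn2, an axonal adhesion molecule, at -0.61 with an SE of 0.18, and the CRMP genes Crmp1 and Dpysl5 at -0.43 with an SE of 0.14 and -0.49 with an SE of 0.16. None of these 5 was called, with edgeR adjusted p of 0.0818 for Cntn2 to 0.207 for Vegfa. The CRMP genes are cytoplasmic mediators of the Sema3a response.

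Cell type markers were read beside these values. Of 14 projection neuron markers 3 fell and none rose, and among those that fell Neurod2 fell by 0.75 and Neurod6 fell by 0.98 on the log2 scale. In the same list 7 had an unadjusted p under 0.05, 11 had log2 fold changes below 0 and 3 above it, the highest at 0.45, and the median was -0.38. The summed level of the list was 7692 to 9269 CPM in cKO and 10456 to 13682 CPM in controls. Within each library, log2 CPM of Nrp1 minus the mean of these 14 markers was -0.88 ± 0.19 in cKO (SD, n = 3) and -0.22 ± 0.16 in controls (SD, n = 7), a difference of -0.65. Nrp1 was known to be lower when this contrast was chosen, so the value is a description, with no p-value. Leaving out single libraries gave -0.75 to -0.56. Of 9 radial glial and 6 intermediate progenitor markers none was called. An unadjusted p under 0.05 was reached by 1 and 4 of them, with median log2 fold changes of 0.10 and -0.18, and 1 intermediate progenitor marker had all cKO libraries below every control. By control mean the most abundant of each were Fabp7 and Vim, and Neurog2 and Sstr2. In cKO the means of Gadd45g (193 CPM) and Btg2 (173 CPM) were above those of Neurog2 (158 CPM) and Sstr2 (141 CPM).

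All 6 Cajal-Retzius cell markers (Reln, Trp73, Lhx1, Lhx5, Calb2 and Ndnf) rose, with a median log2 fold change of 2.79. Their summed level was 566 to 693 CPM in cKO and 16.2 to 174 CPM in controls, so between the genotypes it moved with Nrp2, Plxnc1, Plxnd1, Sema6a and Rnd2. Within cKO the sum was highest in cKO 3, where Nrp2 and Plxnd1 were lowest and Sema6a was highest, and lowest in cKO 2, where Plxnc1 was highest. Among controls it was highest in control 2, which had the lowest level of Plxnc1. It was lowest in control 1, which had the lowest level of Nrp2. Its part in the rise of these genes was not tested. Of 7 interneuron markers 1 rose, Dlx2, with a log2 fold change of 1.63. All 7 had log2 fold changes above 0, with a median of 1.08, and 4 had an unadjusted p under 0.05. The summed level of this list was 42.2 to 145 CPM in cKO and 17.1 to 113 CPM in controls. Pericyte markers summed to 3.91 to 11.4 CPM in cKO and 2.12 to 5.77 CPM in controls, and microglial markers to 2.73 to 39.5 CPM and 0 to 6.06 CPM, with no gene of either list testable. Markers of oligodendrocyte precursors summed to 6.64 to 25.1 CPM and 0 to 82.4 CPM, those of meningeal fibroblasts to 23.7 to 43.8 CPM and 9.32 to 29.7 CPM, and those of erythroid cells to 20.2 to 2282 CPM and 0.357 to 1802 CPM in cKO and controls, with no gene called. No gene of these lists was at 0 in all libraries.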

How the data were processed

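Neocortical cells of single embryos were dissociated with papain, sorted for MADM labels and processed by Smart-Seq2, which amplifies full-length polyadenylated RNA without molecular identifiers or strand. Per the labels and methods, the authors merged technical replicates, aligned reads to GRCm38 with STAR 2.5.0c, kept unique alignments and deposited raw read counts per GENCODE M16 gene, which leaves out reads shared by overlapping genes. The column that ignores strand was used. Symbols and positions came from GENCODE M21 of GRCm38, where 105 of 53379 identifiers had no match, and promoters from RefSeq. The 24 pairs of libraries within a genotype differed beyond counting error (chi-square per degree of freedom 4.98 to 23.1), so no library was counted as a duplicate.

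Counts of genes that averaged 10 reads or more were compared with edgeR 4.0.16 in R 4.3.3 (TMM, glmQLFit, glmQLFTest, genotype alone, all 10 libraries), with Benjamini-Hochberg adjustment over all 11551 genes and a threshold of 0.05. Intervals are 95% intervals of the coefficients. Single values on the log2 CPM scale (prior count 2) were tested by exact permutation (two-sided, over libraries). Alternatives were DESeq2 1.42.0, limma-voom (limma 3.58.1), DESeq2 size factors, no filter, summed strand columns, a replicate block, a covariate for the read share outside genes and each library left out. Values per library are given for members with an unadjusted p under 0.05 and for the member of highest level per length in each class. Pathway genes are given for those called and the 3 of smallest p in each direction. Marker genes are given for those called and, in the progenitor lists alone, for the most abundant in controls. Members, lists and rules were chosen with earlier results of these data known. A marker gene is not reported here by name, though list sums, means and adjusted values include it.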

Additional observations from a re-analysis of the deposited data

Results flagged for a closer look

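Among the 7 controls, 1 library stood apart from the rest for each of 2 members that were too low to be tested. Sema3b was at 3.57 CPM in control 6, with the other controls between 0 and 1.42 CPM. Sema3d was at 1.76 CPM in control 7, with the other controls between 0 and 0.584 CPM. In both cases the gap to the nearest control, divided by the range, exceeded the critical value of Dixon's test for 7 samples. Of 30 members examined 2 were found, and 1.5 are expected at 1 in 20. The reads behind these values numbered at most 10 for Sema3b and 5 for Sema3d.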

How the results depend on the processing

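Of 26 member results, 19 stayed on the same side of the threshold in every alternative run, and no direction of a called member turned. The 5 of 26 members called became 8 of 30 without the filter (3.62% of 26537 genes) and 2 of 26 with the replicate block (1.84% of 11551 genes), the 4 higher became 1 with the block (1.22%), and the 1 lower became 3 without the filter (0.98% of all genes), with DESeq2 (1.82%) and with the covariate (1.12%). Single libraries left out gave 3 to 6, 2 to 4 and 1 to 2. All genes called (364) became 961 without the filter and 213 with the block, and ranged from 271 to 419 without single libraries. Those higher (262) became 701 and 141, with a range from 187 to 273. Those lower (102) became 260 without the filter and 210 with DESeq2, with a range from 83 to 146. Pathway genes called (1) became 6 without the filter, 2 with DESeq2 and 2 with the covariate, with a range from 0 to 2. Nrp1 relative to projection neuron markers was -0.46 within the libraries of smaller share of reads outside genes, with cKO 3 as the lone cKO library, -0.76 within those of larger share and -0.75 to -0.56 without single libraries, and Nrp1 minus Nrp2 was -2.61 to -2.05. The difference of -0.65 for Nrp1 relative to the markers had an adjusted p of 0.05 in the exact permutation test when Nrp1 minus Nrp2 was left out of the adjustment, an alternative chosen after seeing the data, and it is given as a description. The filter changes how many genes are tested, and otherwise the cause was not tested. The labels do not say whether same-numbered embryos are paired. Correlations between same-numbered libraries were 0.0407, -0.103 and -0.211, which showed no pairing but cannot exclude it. None of the 3 cKO libraries correlated best with the control of its own number, so the block result is given here alone. Without any 1 cKO library the exact tests cannot pass the threshold. Low counts limit Sema4c, Sema7a and the members under 10 reads.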
